A study of Rattus norvegicus with 26 samples.

Results

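The sarco/endoplasmic reticulum Ca2+-ATPase (SERCA) pumps and 3 of their small membrane regulators were followed in the rat soleus, a calf muscle made mostly of slow-twitch fibres. The set holds 6 genes: the pumps Atp2a1, Atp2a2 and Atp2a3, and the regulators Sln (sarcolipin), Pln (phospholamban) and C2h4orf3 (another-regulin). They were taken by symbol from a table of 34034 genes, and all 6 were among the 10064 genes with enough counts to test. C2h4orf3 and its partners were chosen by symbol with the measured levels of these same libraries in view, so the levels of the members and the line difference of C2h4orf3 are descriptions, and the fit is not independent evidence for them.

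The animals were aged female rats of generation 44 of 2 lines selectively bred for low (LCR) or high (HCR) running capacity. They fell into 4 groups: 8 LCR and 8 HCR rats without wheel access (sedentary), and 5 LCR and 5 HCR rats housed in pairs with a running wheel for more than 5 months (running). The labels give no age in weeks, no distance run and no cage for each animal, and the runners were a cohort of their own, so cohort and running cannot be told apart. The groups name no separate tissue pools, and each library was taken as 1 animal. If cage mates are alike, the p-values for the runners are too small. Each line is 1 breeding population, so the 2 lines are compared as such.

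SERCA pumps use ATP to return Ca2+ from the cytosol to the sarcoplasmic reticulum, which ends each contraction and refills the store for the next. Atp2a1 encodes the pump of fast-twitch fibres, Atp2a2 that of slow-twitch fibres and heart, and Atp2a3 a form known mostly from non-muscle cells. Sarcolipin, phospholamban, myoregulin (Mrln) and another-regulin are short transmembrane peptides that bind a pump and lower its activity, and the peptide DWORF (Strit1) opposes them. Sarcolipin is also known for uncoupling ATP use from Ca2+ transport, which yields heat, and another-regulin is known from many tissues besides muscle.

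Libraries were primed at the poly(A) tail, a design meant to draw reads from transcript 3' ends and to limit the effect of length. Levels below are read counts scaled to library size (CPM) with TMM, a correction for library composition. The sums over lists of soleus, fibre-type and cell type markers are the exception: they are CPM of total counts without TMM. Orders of level and ratios of CPM between genes also depend on how well each 3' end was captured and annotated. Ttn, a very long transcript, averaged 92986 CPM in sedentary LCR, against 5692 CPM for Acta1. How far length affects the counts was not tested, so a ratio of CPM between genes is not a ratio of molecules. The forms of Atp2a2 that differ at their 3' ends were counted as 1 gene. Total counts were 1.10 to 2.52 megacounts (M) per library. All 8 soleus muscle markers (Myh7, Tnni1, Tnnt1, Myl2, Ckm, Acta1, Mb and Ttn) were present in every group, with summed levels of 98213 to 146611 CPM. The titles of 2 runners, HCR running 5 and LCR running 5, name the other line. They are placed by genotype here. Of 274 genes called between the sedentary lines, HCR running 5 was nearer the HCR mean for 168 and LCR running 5 for 68, against 158 to 203 in the other HCR runners and 61 to 80 in the other LCR runners.

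Upstream sequences were available for 5 of the 6 members, as the 250 bases before the annotated start in RefSeq (build GRCr8, 5′ to 3′ on the gene's strand). They are shown for the regulator that differed between the lines, for a regulator of the same family that did not pass the test, and for the pumps of slow and fast fibres, because these 4 starts differ in base composition. Capitals mark matches, on either strand, to the GC box GGGCGG and the E-box CANNTG.
C2h4orf3: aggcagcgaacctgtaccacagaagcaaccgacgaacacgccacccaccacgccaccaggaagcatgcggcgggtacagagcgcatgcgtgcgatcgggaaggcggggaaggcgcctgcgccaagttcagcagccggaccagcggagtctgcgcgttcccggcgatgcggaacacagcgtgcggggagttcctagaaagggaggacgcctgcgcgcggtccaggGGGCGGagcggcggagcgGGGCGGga
Pln: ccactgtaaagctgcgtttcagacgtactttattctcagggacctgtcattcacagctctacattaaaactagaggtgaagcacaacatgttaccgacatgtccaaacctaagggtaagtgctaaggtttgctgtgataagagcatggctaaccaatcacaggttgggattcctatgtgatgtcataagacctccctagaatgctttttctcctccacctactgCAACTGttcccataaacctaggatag
Atp2a2: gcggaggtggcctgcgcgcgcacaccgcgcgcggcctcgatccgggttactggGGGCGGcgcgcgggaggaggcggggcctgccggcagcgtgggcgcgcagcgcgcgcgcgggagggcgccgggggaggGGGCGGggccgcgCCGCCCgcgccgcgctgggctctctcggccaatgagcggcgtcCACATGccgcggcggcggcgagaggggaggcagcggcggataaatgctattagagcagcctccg
Atp2a1: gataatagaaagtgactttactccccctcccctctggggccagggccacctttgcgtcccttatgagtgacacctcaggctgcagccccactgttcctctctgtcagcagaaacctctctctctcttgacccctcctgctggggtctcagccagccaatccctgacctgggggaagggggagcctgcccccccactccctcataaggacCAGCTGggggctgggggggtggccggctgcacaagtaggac

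The C2h4orf3 window lies at chr2:213740269-213740518 on the plus strand, holds 69.6% G or C with 32 CpG dinucleotides, and has 2 GC boxes close to the start. The Pln window at chr20:33172244-33172493 on the plus strand is AT-rich, with 44.0% G or C, 3 CpG and 1 E-box. The Atp2a2 window at chr12:39733269-39733518 on the plus strand is the richest of the 5, with 80.0% G or C, 45 CpG, 3 GC boxes and 1 E-box. The Atp2a1 window at chr1:190475411-190475660 on the minus strand has 62.4% G or C but only 2 CpG, and 1 E-box. Atp2a3, which is not printed, has 72.4% G or C, 27 CpG and 4 GC boxes. The median over 33469 such windows was 51.2% G or C and 5 CpG. A GC box was found in 30.47% of all windows and an E-box in 65.54%. The core GGAAA that NFAT factors recognise was in 56.9% of all windows, and its letters were in none of these 5 windows. A match is a description of letters, not a binding site.

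The slow and fast muscle pumps were the most abundant members. Atp2a2, the slow-fibre pump, was the 18th most abundant of the 10064 tested genes, with a mean of 3712 CPM over the 26 libraries and a range of 2393 to 5324 CPM. Atp2a1, the fast-fibre pump, ranked 107th with 841 CPM (539 to 1282). Atp2a3 ranked 5970th with 18.2 CPM (10.4 to 24.1), from 13 to 52 counts per library. Of the summed pump transcripts in CPM, Atp2a2 made up 81.1% on average (73.8% to 88.2% by library), Atp2a1 18.5% and Atp2a3 0.405%. Sln, at 333 CPM, ranked 421st and was the most abundant of the 3 regulators in the set. C2h4orf3 followed at 54.4 CPM (rank 2946) and Pln at 11.4 CPM (rank 7357).

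Variation between libraries was widest for 2 of the regulators. The coefficient of variation of CPM over the 26 libraries was 47.9% for C2h4orf3 and 40.1% for Sln, against 18.9% for Atp2a2, 21.3% for Atp2a3, 26.1% for Atp2a1 and 28.8% for Pln. From the lowest to the highest library, C2h4orf3 spanned 4.83-fold, Sln 4.34-fold, Pln 3.11-fold and each pump less than Pln. C2h4orf3 separated by line, as described next, whereas the spread of Sln lay within the groups. The plot of CPM by library shows the 6 members side by side.

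**Figure D1:**
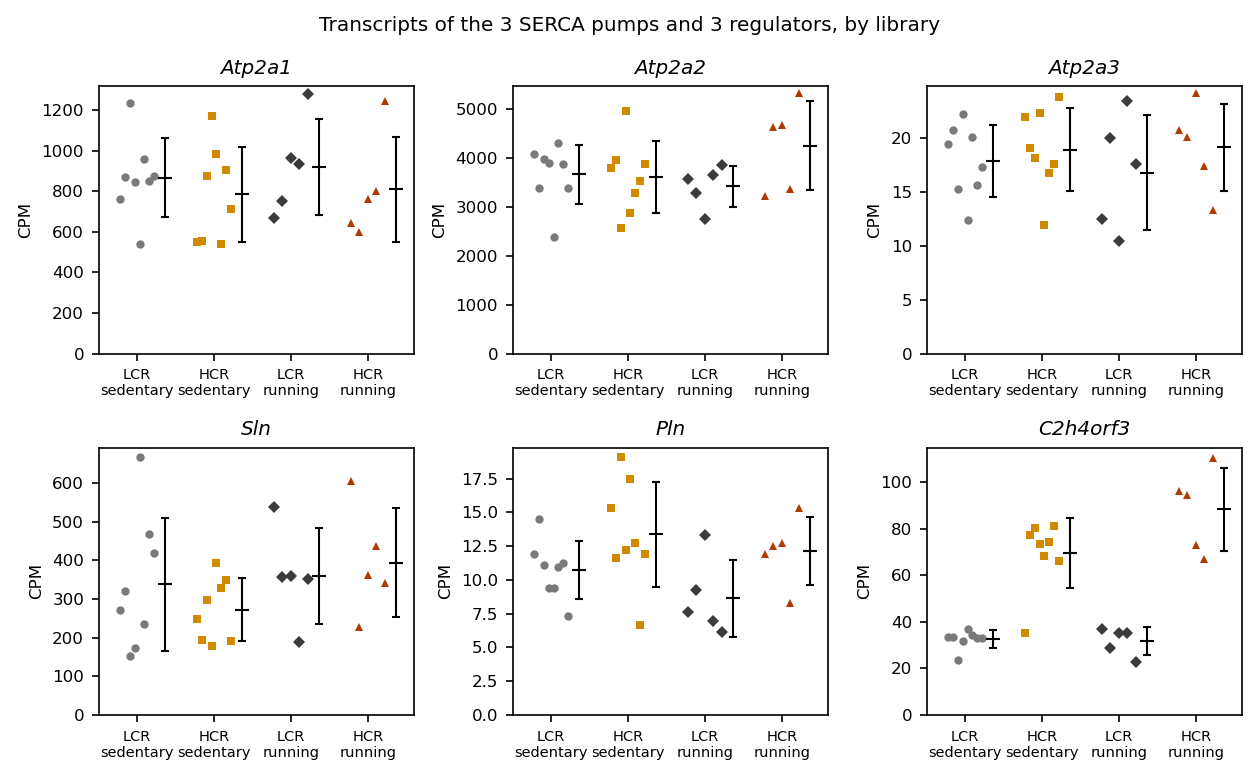
Normalised level (CPM, linear axes from 0) of each member in each of the 26 libraries, by group; each point is 1 animal, and the black bar and whiskers give the group mean ± SD. C2h4orf3 forms a low band in LCR and a higher band in HCR with 1 sedentary HCR library at the LCR level, while the groups overlap for the other 5 genes.

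C2h4orf3 encodes another-regulin, a SERCA inhibitor, and was higher in HCR than in LCR soleus. In sedentary LCR rats it ran from 23.6 to 36.7 CPM with a median of 33.3, and the mean was 32.4 ± 3.84 (SD, n = 8). In sedentary HCR rats it ran from 35.2 to 81.1 CPM with a median of 73.9, and the mean was 69.5 ± 14.8 (SD, n = 8). Of the 8 sedentary HCR libraries, 7 lay between 66.0 and 81.1 CPM, above every LCR library, and HCR sedentary 1 alone, at 35.2 CPM, fell within the LCR range. For the genes called between the running lines, HCR sedentary 1 was nearer the HCR mean for 46 of 63, against 41 to 53 in the other sedentary HCR libraries.

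Among runners the C2h4orf3 levels did not overlap. The 5 running LCR libraries held 36.9, 28.7, 35.3, 35.4 and 22.9 CPM (mean 31.8 ± 5.93, SD), and the 5 running HCR libraries 96.0, 94.4, 73.1, 67.1 and 110 CPM (mean 88.2 ± 17.8, SD). The libraries with conflicting titles are the last of each list, and they were the lowest LCR and the highest HCR runner. Of all genes tested, 1.91% had no overlap between the running lines.

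As fitted with edgeR over all genes tested, the line difference of C2h4orf3 was a log2 fold change of 1.09 (SE 0.13, 95% interval 0.82 to 1.37) in sedentary rats, which is 2.13-fold. In runners it was 1.45 (SE 0.17, interval 1.10 to 1.81), or 2.74-fold, and averaged over both activities 1.27 (SE 0.11). C2h4orf3 was past the threshold (Benjamini-Hochberg adjusted p under 0.05) in these 3 comparisons, and it was the only member that was. The threshold was passed by 2.72% of all genes in sedentary rats, by 0.626% in runners and by 3.75% for the average. With the runners of conflicting title placed in the line of the title, the difference in runners was 0.63 and was not called (edgeR adjusted p = 0.954). Reads were counted near the 3' end, and whether a sequence difference between the lines at that end alters the count was not tested.

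Running was not followed by a called change of C2h4orf3. The log2 difference of runners from sedentary rats was -0.02 (SE 0.16) in LCR and 0.34 (SE 0.14, edgeR adjusted p = 0.298) in HCR. The response in HCR exceeded that in LCR by 0.36 (SE 0.22, interval -0.09 to 0.81, edgeR adjusted p = 0.852). Among all genes tested, 0% passed for running in LCR, 0.0994% for running in HCR, 0.378% for running averaged over the lines and 0% for the difference between the responses. At an unadjusted p under 0.05 there were 612 genes for running in LCR and 592 for the difference between the responses, and DESeq2 called 2 and 0 genes.

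**Figure D2:**
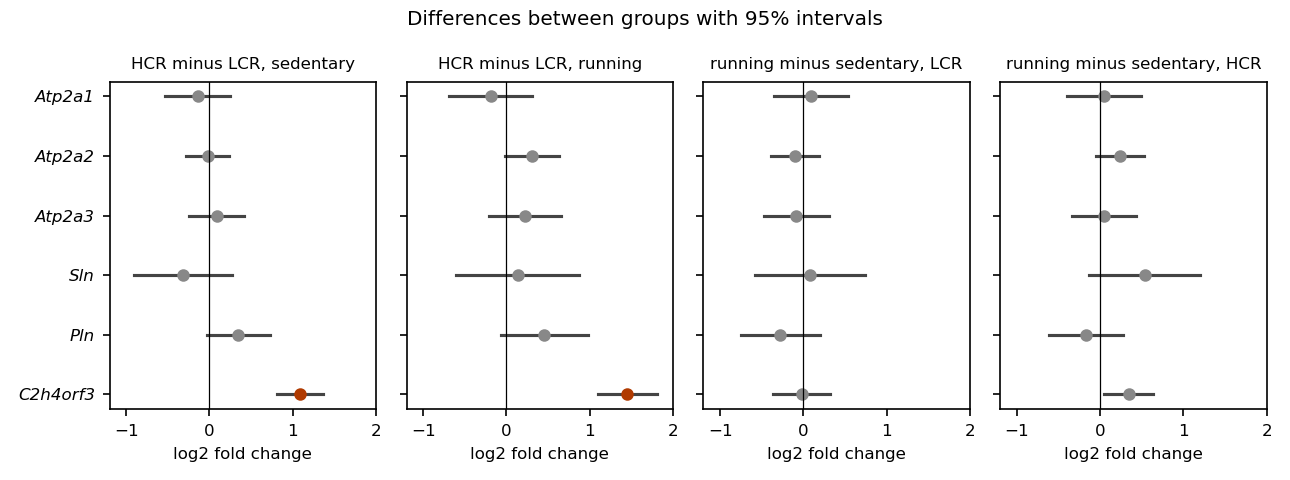
Log2 fold change (points) with its 95% interval (lines) for each member in the 4 comparisons between groups; red points passed the threshold over all 10064 genes and grey points did not. Red points appear for C2h4orf3 alone, in both comparisons of HCR with LCR, at 1.09 and 1.45.

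None of the other 5 members was called in any of the 7 comparisons. Adjusted p-values for them ran from 0.168 upwards with edgeR. The intervals show what the data allow for each gene, and they are widest for Sln.

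Atp2a2 levels in sedentary rats were nearly level between the lines. They ran from 2393 to 4313 CPM in LCR (mean 3665 ± 604, SD, n = 8) and from 2577 to 4965 CPM in HCR (mean 3608 ± 734, n = 8). The log2 line difference there was -0.02 (SE 0.12), with an interval of -0.28 to 0.23. In runners the LCR libraries held 3560, 3274, 2754, 3641 and 3861 CPM and the HCR libraries 3222, 4636, 4673, 3373 and 5324 CPM. Of the 5 HCR runners, 3 lay above every LCR runner and the others within the LCR range. The fitted difference in runners was 0.31 (SE 0.16, interval -0.01 to 0.64, edgeR adjusted p = 0.591).

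Atp2a1 varied more between animals than between groups. It ran from 539 to 1237 CPM in sedentary LCR (mean 867 ± 195, SD) and from 539 to 1169 CPM in sedentary HCR (mean 785 ± 234), a log2 difference of -0.14 (SE 0.19, interval -0.53 to 0.25). The running LCR libraries held 668, 755, 965, 937 and 1282 CPM and the running HCR libraries 642, 597, 763, 800 and 1246 CPM. The ranges overlapped, with a log2 difference of -0.19 (SE 0.24, interval -0.68 to 0.31). The ratio of Atp2a2 CPM to Atp2a1 CPM was 4.31 ± 0.636 in sedentary LCR and 4.95 ± 1.69 in sedentary HCR (SD). It was 3.88 ± 1.01 in running LCR and 5.48 ± 1.49 in running HCR. These groups overlap too. The 3' end of Atp2a1 overlaps Rabep2, which was at 4.82 to 9.29 CPM by group mean, and reads in the shared stretch are uncertain.

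Atp2a3, the pump known mostly from non-muscle cells, was low in every group. Group means were 17.9 ± 3.30 CPM in sedentary LCR, 18.9 ± 3.81 in sedentary HCR, 16.8 ± 5.32 in running LCR and 19.1 ± 4.05 in running HCR (SD, n = 8, 8, 5 and 5). Its log2 line difference was 0.09 (SE 0.16) in sedentary rats and 0.22 (SE 0.21) in runners. In bulk tissue, fewer cells of a type and less RNA per cell cannot be told apart, which bears on this non-muscle pump in particular.

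Sln, the sarcolipin gene, had its widest spread in sedentary LCR rats. There it ran from 153 to 666 CPM with a median of 295 (mean 338 ± 172, SD), against 177 to 394 CPM in sedentary HCR (median 273, mean 272 ± 81.7). The running LCR libraries held 538, 357, 360, 190 and 352 CPM and the running HCR libraries 606, 226, 361, 437 and 340 CPM. All 4 groups overlap. The fitted log2 line difference was -0.32 (SE 0.28, interval -0.90 to 0.27) in sedentary rats and 0.13 (SE 0.36) in runners. Within HCR, runners were higher than sedentary rats by 0.53 (SE 0.32, interval -0.13 to 1.20, edgeR adjusted p = 0.521), so neither no change nor a doubling lies outside the interval.

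Pln, the phospholamban gene, rested on 7 to 55 counts per library. It ran from 7.33 to 14.5 CPM in sedentary LCR (mean 10.7 ± 2.12, SD) and from 6.66 to 19.1 CPM in sedentary HCR (mean 13.4 ± 3.89). The running LCR libraries held 7.60, 9.24, 13.3, 6.95 and 6.16 CPM and the running HCR libraries 11.9, 12.5, 12.8, 8.28 and 15.3 CPM. Of the 5 LCR runners, 4 were below 4 of the 5 HCR runners. The log2 line difference averaged over activity was 0.40 (SE 0.16, interval 0.08 to 0.72, edgeR adjusted p = 0.168), the smallest adjusted p of these 5 genes, and it was not called. Pln lies within the span of Cep85l, which was read at 141 to 200 CPM by group mean, and no source used here states how strand was treated in counting. Reads of the pair are therefore uncertain, and the Pln level may be understated or hold reads of the larger gene.

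Relative to its targets, C2h4orf3 stood at 0.744 ± 0.228 CPM per 100 CPM of the pumps in sedentary LCR and 1.62 ± 0.467 in sedentary HCR (SD). In runners the ratios were 0.748 ± 0.193 and 1.78 ± 0.423. The summed pump level differed little by comparison, from 4356 CPM in running LCR to 5075 CPM in running HCR by group mean. Together with Mrln and Strit1, the 3 regulators make 5 peptides whose transcripts were detected. Of their summed CPM over the 26 libraries, Strit1, the activating peptide DWORF, made up 68.9%, Sln 24.6%, C2h4orf3 4.07%, Mrln 1.58% and Pln 0.881%. The C2h4orf3 share was 2.58% in sedentary LCR, 5.56% in sedentary HCR, 2.41% in running LCR and 5.76% in running HCR. These shares follow from the levels above and carry no test of their own.

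None of 19 other tested partners of the pumps was called. A list of 20 such genes, chosen with results of these data known, holds the other peptides, the pump-binding proteins and the kinases and phosphatases that act on phospholamban. Over all genes tested, edgeR called from 0% to 3.75% in the 7 comparisons. Of the listed genes, 19 could be tested and 0 were called in any of these comparisons, which is near that share. For the line difference averaged over activity, 6 lay above and 13 below 0 with a median log2 difference of -0.05 and a range of -0.15 to 0.12, beside a median of 0.00 over all genes. Strit1 averaged 858, 894, 930 and 1020 CPM and Mrln 20.8, 18.0, 24.2 and 22.3 CPM, each in the order sedentary LCR and HCR, then running LCR and HCR. Smim6, the gene of the peptide endoregulin, was at 0 in every library. Srl (sarcalumenin) at 620 to 706 CPM, Hrc (histidine-rich Ca2+-binding protein) at 1140 to 1261 CPM and Camk2b, a kinase subunit, at 407 to 433 CPM are examples of abundant members with close group means. Prkaca, the catalytic subunit of protein kinase A, had the smallest adjusted p of the list, for running averaged over the lines (log2 difference 0.23, SE 0.07, edgeR adjusted p = 0.148).

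Of the genes for Ca2+ release and storage in the sarcoplasmic reticulum, 1 of 19 tested was called between the lines. The share of all genes called was 2.72% in sedentary rats and 3.75% for the average over activity. The called gene was Ryr3, a minor muscle Ca2+ release channel, which was lower in HCR. In sedentary rats it ran from 68.6 to 126 CPM in LCR (mean 103 ± 17.3, SD) and from 42.3 to 58.1 CPM in HCR (mean 53.2 ± 5.46). The log2 difference was -0.95 (SE 0.11, edgeR adjusted p = 1.11e-06). HCR sedentary 1, the library low in C2h4orf3, held 56.7 CPM of Ryr3 and so lay with its line. Among runners the LCR libraries held 92.8, 81.3, 105, 100 and 108 CPM and the HCR libraries 78.4, 47.2, 68.8, 67.1 and 94.0 CPM, the last of each being those with conflicting titles. These ranges overlap through HCR running 5, and the difference of -0.47 (SE 0.14, edgeR adjusted p = 0.157) was not called. The median of the 19 genes was -0.07 for the average over activity, with 14 below 0. Of 19 other genes of Ca2+ transport and buffering, Micu2, a gatekeeper of mitochondrial Ca2+ uptake, was lower in HCR on average (-0.24, edgeR adjusted p = 0.0369), and Stim1, the sensor of store-operated Ca2+ entry, was higher in runners on average (0.26, edgeR adjusted p = 0.0446). The median of these 19 was -0.02 for the average line difference. The share of all genes called for running averaged over the lines was 0.378%.

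Several fast-fibre genes were lower in HCR, while Atp2a1, which is a member of that list, was not called. In runners 4 of 17 fast-fibre genes were called lower in HCR and 0 called higher, beside 0.626% of all genes tested called in either direction. Over the 17, 15 lay below 0 and 2 above, with a median log2 difference of -0.32. Tnni2, fast troponin I, differed by -2.51 (SE 0.46, edgeR adjusted p = 0.00599), Tnnt3, fast troponin T, by -1.98 (SE 0.37, edgeR adjusted p = 0.00881) and Myh2, the myosin of fast oxidative fibres, by -2.86 (SE 0.59, edgeR adjusted p = 0.0207). Tpm1, a tropomyosin gene, was the other. For sedentary rats 1 of 17 was called, Eno3 (muscle enolase, -0.44, edgeR adjusted p = 0.0146), with a median of -0.37. The share of all genes called there was 2.72%. Of 12 slow-fibre genes, which include the member Pln, 0 were called between the lines in either activity, beside the same shares of all genes. Tnnc1, slow troponin C, was called for running averaged over the lines (0.40, edgeR adjusted p = 0.0425). Of the fast-fibre genes, Eno3 was called higher in runners within HCR (0.56, edgeR adjusted p = 0.0318) and averaged over the lines (0.36, edgeR adjusted p = 0.0425). The shares of all genes called were 0.0994% for running in HCR and 0.378% for running averaged over the lines. Summed fast-fibre levels had medians of 15790 CPM in sedentary LCR, 11664 in sedentary HCR, 14810 in running LCR and 9345 in running HCR. Their part in the C2h4orf3 difference was not tested, and the relation of C2h4orf3 to Myh2 within groups is given with the correlations.

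Between animals, Atp2a1 rose with the fast myosin gene Myh2 and Atp2a2 with the slow myosin gene Myh7. Atp2a3 was not among the relations tested. Across the 26 libraries on the log2 CPM scale, Atp2a1 and Myh2 had r = 0.65 (permutation p = 0.00037, adjusted over 20 relations 0.00247) and rho = 0.64 (permutation p = 0.0007, adjusted 0.00467). Without the 2 libraries farthest from the Atp2a1 median r was 0.62, and with the group means taken away it was 0.82. Atp2a2 and Myh7, the slow myosin, had r = 0.71 (permutation p = 4e-05, adjusted 0.0008) and rho = 0.66 (permutation p = 0.00031, adjusted 0.0031), with 0.58 without the 2 farthest libraries and 0.75 with group means taken away. The crossed relations did not pass: r = 0.39 for Atp2a1 with Myh7 (adjusted permutation p = 0.148) and -0.14 for Atp2a2 with Myh2 (adjusted permutation p = 0.610). With group means taken away these were 0.37 and 0.15. In the 10 running libraries, the values within groups were 0.76 for Atp2a1 with Myh2 and 0.54 for Atp2a2 with Myh7. The crossed values there were 0.60 for Atp2a1 with Myh7 and -0.11 for Atp2a2 with Myh2. Whether matched and crossed relations differ was not tested. All values come from the same libraries, so composition and depth are shared.

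Sln ran opposite to the slow pump. Sln and Atp2a2 had r = -0.50 (permutation p = 0.00873, adjusted over 20 relations 0.0436) and rho = -0.56 (permutation p = 0.00361, adjusted 0.0180). With group means taken away r was -0.65 over the 26 libraries, -0.73 in the 16 sedentary and -0.50 in the 10 running libraries, and without the 2 libraries farthest from the Sln median the pooled value was -0.40. LCR sedentary 5 had the highest Sln of all libraries (666 CPM) together with the lowest Atp2a2 (2393 CPM) and the lowest Atp2a1 (539 CPM). Sln with Atp2a1 had r = -0.23 (adjusted permutation p = 0.503), and Sln with Pln -0.13 (adjusted permutation p = 0.619). For C2h4orf3 the lines form separate clusters, so values within groups are given: r with group means taken away was -0.09 with Myh2, -0.10 with Myh7, -0.12 with Atp2a2, 0.00 with Atp2a1, 0.18 with Sln and 0.04 with Pln over the 26 libraries. With Myh2 it was 0.0035 in the 16 sedentary and -0.32 in the 10 running libraries.

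**Figure D3:**
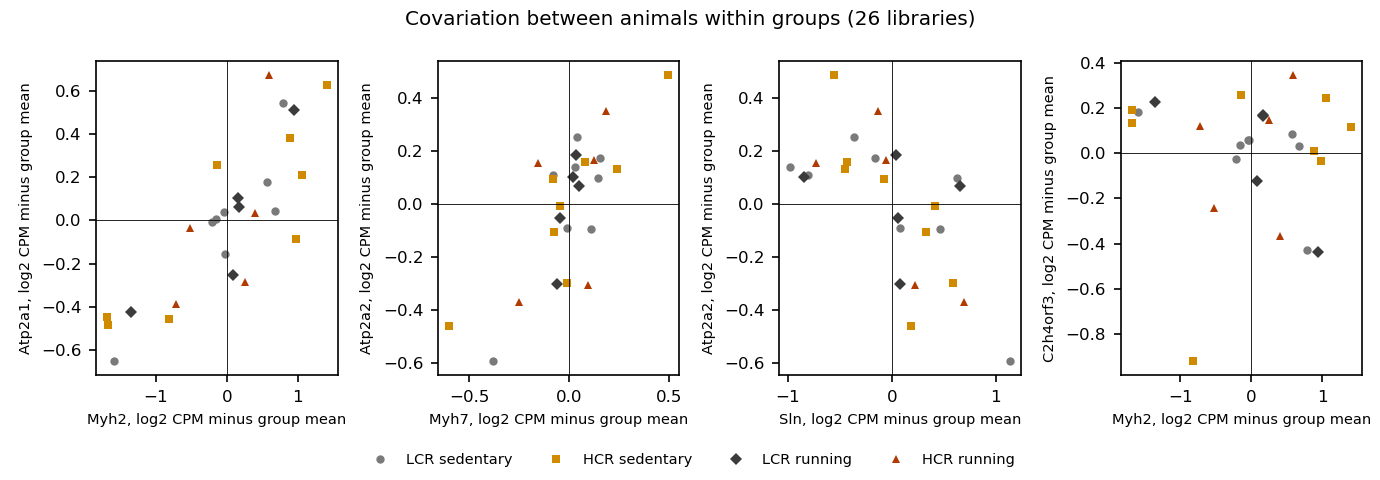
Log2 CPM minus the group mean for 4 pairs of genes, 1 point per library and 1 symbol per group. Within groups Atp2a1 rises with Myh2 (r = 0.82) and Atp2a2 with Myh7 (r = 0.75), Atp2a2 falls as Sln rises (r = -0.65), and C2h4orf3 shows little relation to Myh2 (r = -0.09).

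The genes whose pattern over the 26 libraries was most like each member were taken by Pearson r on log2 CPM among 9598 genes, as a description. For Atp2a2 they were Acads (r = 0.93), Cox8b (0.93), Acadm (0.92), Etfb (0.90) and Ech1 (0.88), which encode mitochondrial enzymes, mostly of fatty acid oxidation, and a cytochrome oxidase subunit. Atp2a1 was closest to Jph1 (r = 0.82), Myoz1 (0.76), Ppp3ca (0.75), Pde4dip (0.74) and Jph2 (0.71), of which Jph1 and Jph2 encode the junctophilins that tie the sarcoplasmic reticulum to the T-tubules. For both pumps r with the group means taken away moved by at most 0.0227 from these values. Sln was closest to Sc5d (r = 0.78), Inppl1 (0.77), Sec1 (0.75), Armcx4 (0.75) and Mt3 (0.75). Atp2a3 was closest to Mmgt1 (r = 0.68), Fmo1 (0.67), Setdb1 (0.66), Cadm3 (0.64) and Ece1 (0.63), and Pln to Skic3 (0.68), Cdyl2 (0.65), Fem1c (0.61), Rpl32 (0.61) and Mycbpap (0.61). C2h4orf3 was closest to Pagr1 (r = 0.83), Rps28 (0.83), Pik3r1 (0.83), Cyp2j4 (0.81) and Nedd4l (0.81). Its likeness followed the line difference, since with group means taken away r was 0.22, 0.38, 0.33 and 0.02 for the first 4, and 0.68 for Nedd4l, a ubiquitin ligase gene.

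The neighbours of C2h4orf3, looked at after its values were seen, had smaller fitted line differences. Of the 5 annotated protein-coding or long non-coding RNA genes on either side in GRCr8 order, 5 of the 10 could be tested. Nearest and farthest refer to that order, as no distance was measured. Usp53, the nearest tested gene, had log2 line differences of 0.17 (SE 0.14) in sedentary rats and 0.21 (SE 0.18) in runners, and Myoz2, a Z-disc protein gene, -0.07 (SE 0.13) and -0.16 (SE 0.17). Synpo2 differed by -0.29 (SE 0.12) and -0.25 (SE 0.15), and Pde5a, at about 6 CPM, by -0.29 (SE 0.22) and -0.44 (SE 0.31). Sec24d, the farthest of the tested genes and a coat protein gene of vesicle transport, was higher in HCR on average (0.58, SE 0.17, edgeR adjusted p = 0.041) and not called within either activity. Its line difference was 0.54 (SE 0.21, interval 0.11 to 0.97) in sedentary rats and 0.61 (SE 0.26, interval 0.07 to 1.15) in runners. Whether the lines carry different alleles here was not tested.

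**Figure D4:**
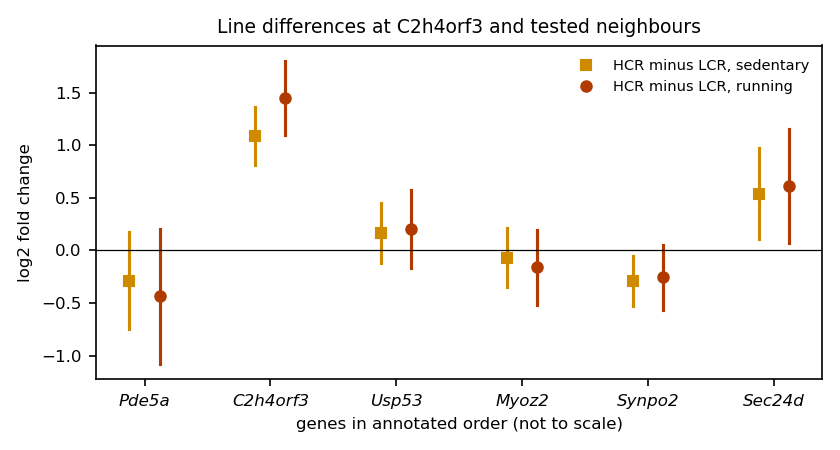
Log2 fold change of HCR over LCR with its 95% interval for C2h4orf3 and the 5 tested neighbours, in annotated order and not to scale; squares are sedentary rats and circles runners. C2h4orf3 stands at 1.09 and 1.45, and the intervals of Usp53, next to it, include 0 in both. The intervals of Sec24d lie above 0 in both, and that of Synpo2 lies below 0 in sedentary rats.

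Markers of other cell types were read beside these results because another-regulin is not restricted to muscle fibres. For the line difference averaged over activity, 1 of 8 endothelial markers was called, Vwf (-0.51, lower in HCR), and 1 of 7 fibro-adipogenic markers, Pi16 (-0.27, lower in HCR). The share of all genes tested that was called in that comparison was 3.75%. Of the smooth muscle (6 tested), leukocyte and platelet (7 tested) and adipocyte (5 tested) markers, 0 were called by edgeR. The 5 tested adipocyte markers all lay above 0 in sedentary rats, with a median of 0.72 and none called, and their summed level ran from 159 to 339 CPM in sedentary LCR, 233 to 473 in sedentary HCR, 132 to 238 in running LCR and 181 to 344 in running HCR. Summed endothelial levels ran from 253 to 377, 250 to 431, 244 to 309 and 233 to 325 CPM in the same order of groups. Summed leukocyte and platelet levels ran from 129 to 199, 165 to 265, 142 to 247 and 134 to 244 CPM, with Ppbp at 0 in all groups, Gp9 in 3 and Cd79b in 3. Fibro-adipogenic sums ran from 675 to 1011, 624 to 1310, 675 to 950 and 589 to 1411 CPM, and smooth muscle sums from 2210 to 2708, 2118 to 2681, 2300 to 2696 and 2254 to 2767 CPM. Most of the smooth muscle sum was Des, which skeletal muscle fibres also express. Its group means, likewise without TMM, were 2271, 2201, 2366 and 2325 CPM. That sum therefore says little about smooth muscle itself. All these summed ranges overlap between the lines, and the part of these cell types in the C2h4orf3 difference was not tested.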

How the data were processed

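Soleus RNA of 26 rats was read as 3' tag libraries from 1 end, per the labels' protocols. The authors deposited a table of whole-number read counts per gene, not normalised, as its values show. The submitters' processing notes name STAR, featureCounts, cutadapt, UMI-tools, FastQC and MultiQC, and the assembly mRatBN7.2. Their versions and settings, the use of strand and whether molecular identifiers were collapsed are not given in the sources used here, so counting error may be larger than the counts imply. All 26 columns matched a sample and 0 columns belonged to no sample.

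The count test was edgeR's (version 4.0.16, R 4.3.3; TMM factors, filterByExpr by group, robust quasi-likelihood F test, Benjamini-Hochberg adjustment over 10064 genes at 0.05). One fit with a mean per group gave 7 comparisons, and 22 residual degrees of freedom set the 95% intervals. SE is the size of the log2 change over the root of the F statistic. Log2 CPM used a prior count of 2. DESeq2 1.42.0, other scalings and filters, the title's line, a replicate block and leaving out each library were the alternatives. Correlations used 100000 permutations, 2-sided, in Python 3.11.15 with NumPy 2.4.6. The fit was tested on simulated data first. No pair of libraries in a group agreed within sampling noise (chi-square per degree of freedom 2.09 to 10.3 over 76 pairs). Replicate numbers were not used as pairs in the main fit. The r of same-numbered deviations was over 0.1 in 3 of 33 pairs, with a range of -0.22 to 0.25. Differently numbered libraries were not compared, and whether equal numbers share a cage or day was not tested. Nothing states separate cultures or litters, so p-values measure the spread between these animals.

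The members and gene lists were chosen with earlier results of these data known. Named genes are the 6 members, the listed SERCA regulators, up to 4 called genes of each other list, Myh2 and Myh7, and the 5 genes of highest r with each member. Of the genes this rule names, 1 is not reported here. Promoter windows come from RefSeq, build GRCr8, and no coordinate was converted.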

Additional observations from a re-analysis of the deposited data

Results flagged for a closer look

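C2h4orf3 in HCR sedentary 1 was 35.2 CPM, the lowest of its 8 libraries, and the nearest other was 66.0 CPM. It stood apart because the gap was 0.67 of the whole range of the group.

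C2h4orf3 in LCR sedentary 3 was 23.6 CPM, the lowest of its 8 libraries, with the nearest at 31.6 CPM and a gap of 0.61 of the range. Both were found by Dixon's test among 24 sets of values (6 genes in 4 groups), of which 2 were past the 95% limit, and the test marks about 5% of such sets by chance. With each of these libraries left out in turn, the line difference of C2h4orf3 in sedentary rats was still called by edgeR, with log2 values from 1.04 to 1.19 over all libraries left out.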

How the results depend on the processing

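C2h4orf3 was called between the lines in 97 of 98 refits of the 3 line comparisons. The exception was the running lines with the 2 conflicting runners placed in the line of their title, where the log2 difference was 0.63 (edgeR adjusted p = 0.954). Leaving out 1 library gave 1.04 to 1.19 in sedentary rats, 1.37 to 1.53 in runners and 1.23 to 1.32 on average. For the 39 member results that were not called, 0 of 1268 refits passed, the smallest adjusted p was 0.0798, and 51 had the other sign. Pooled over the 26 libraries, where the lines form separate clusters, C2h4orf3 with Myh2 had r = -0.70 (adjusted permutation p = 0.0014). The pooled rho was -0.76 (adjusted permutation p = 0.0006). With group means taken away r for this pair was -0.09 (adjusted permutation p = 0.855) and no longer passed. It was then 0.0035 in the sedentary and -0.32 in the running libraries.

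Counts of called genes moved more. For the running lines there were 63 genes, but 35 with only the groups compared, 0 with the title's line, 35 with the conflicting titles left out and 32 to 67 with 1 library left out (41 without LCR running 3, 32 without HCR running 3 and 38 without LCR running 5). For the lines on average 377 genes became 137 with the title's line, and for the sedentary lines leaving out 1 library gave 182 (without LCR sedentary 7) to 337. For running in LCR the count of 0 became 2 with DESeq2, 2 with no filter on low counts, 1 with the conflicting titles left out and 0 to 2 with 1 library left out. For running in HCR 10 became 79 with DESeq2 and 4 (without HCR running 3) to 38 (without HCR sedentary 4) with 1 library left out, where 6 of 26 libraries moved it by over 1.5 times. For running on average 38 became 80 with DESeq2 and 9 (without LCR running 1) to 63 (without LCR running 5) with 1 library left out, where 23 of 26 libraries did so. Under upper-quartile factors 17 of 32 genes were higher in runners on average, against 26 of 38, and 10 of 14 in HCR, against 10 of 10.

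With the replicate block, counts were 253, 53 and 343 for the sedentary, running and averaged line differences and 19 for running on average, and no call of a member changed. The cause of these shifts was not tested. Depth of 1.10 to 2.52 M limits Pln and Atp2a3 most.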
